A study of Homo sapiens with 12 samples.

Results

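The genes described here are the box H/ACA small nucleolar RNAs (symbols starting with SNORA) and the small Cajal body RNAs (symbols starting with SCARNA) measured in the human colorectal cancer cell line HCT116 and in HCT116oxR, an oxaliplatin-resistant line derived from it. Members were the rows with such a symbol whose raw counts summed to 60 or more over the 6 total RNA libraries. They were 115 of the 161 rows with such symbols, in a table of 54261 genes, with 93 SNORA and 22 SCARNA genes. The sum over both lines chose them, so their overall level is not a result. Just inside that threshold were SNORA59A and SCARNA23 with 66 counts each and SNORA22 with 64, and just outside it were SNORA91 with 59, SNORA37 with 56 and SCARNA26B with 55. All 115 had counts in every library and passed the filter on low counts.

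The parental group was HCT116 with no drug named in its labels. The HCT116oxR group was made from HCT116 by stepwise exposure to oxaliplatin, a platinum drug that forms DNA adducts, from 0.1 µmol/L to a final 5 µmol/L held for 1 year, in RPMI with fetal bovine serum and antibiotics. Each line gave 3 total RNA and 3 small RNA libraries from cultures grown and harvested separately. There was 1 resistant line. The p-values thus set the difference between the lines against the spread among cultures within each line, and not among independently selected lines. Whether drug was present at harvest is not given in the sources used here.

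H/ACA RNAs fold into hairpins that hold a target RNA in a pocket and direct dyskerin, the pseudouridine synthase encoded by DKC1, to one uridine. SNORA genes mostly guide changes in ribosomal RNA in the nucleolus, while SCARNA genes guide pseudouridylation or 2′-O-methylation of the spliceosomal small nuclear RNAs in Cajal bodies. In human cells most of them have no promoter of their own and are trimmed out of introns of host genes, many of which encode ribosomal proteins or other parts of the translation machinery. The SCARNA members here comprised 10 H/ACA RNAs, 4 C/D RNAs, which direct methylation, and 5 that join both kinds, and 3 were not assigned.

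Library totals ranged from 11950069 to 13558077 counts for total RNA and from 16089595 to 18147051 for small RNA. Members took 0.0895% to 0.0962% of all counts in the HCT116 libraries and 0.109% to 0.112% in the HCT116oxR libraries. Levels are given as CPM, counts scaled to the library total with TMM factors. The 5 colon epithelial markers EPCAM, KRT8, KRT18, KRT19 and CDH1 summed to 3063 to 3760 CPM per library, while the 4 immune markers summed to 0 to 0.151 CPM, with PTPRC and CD3E at 0 in all libraries. Endothelial markers summed to 1.58 to 3.21 CPM and fibroblast markers to 46.3 to 67.8 CPM. Most of the fibroblast sum was COL1A1, at 518 to 703 counts per library, with COL1A2 at 43 to 129. DCN had 1 to 5 counts and PDGFRB 1 to 14. Most of the endothelial sum was VWF, at 18 to 42 counts, with PECAM1 at 0 to 5 and CDH5 at 0 or 1.

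The SNORA counts were on balance higher in HCT116oxR. Here and below, a member's count may include reads of a host transcript over its interval. Such reads cannot be told apart from the small RNA. Summed over the 93 SNORA members, the 3 HCT116 libraries had 661, 656 and 635 CPM and the 3 HCT116oxR libraries had 795, 762 and 808 CPM, so that the groups did not overlap. The means were 650.8 ± 13.6 and 788 ± 23.9 CPM (SD, n = 3 each), a ratio of 1.21. The 22 SCARNA members summed to 307, 283 and 263 CPM in HCT116 and to 294, 325 and 307 CPM in HCT116oxR. Their groups overlapped, with a ratio of means of 1.08. For all 115 members the ratio was 1.17, and it was 1.16 without the 3 members with the highest CPM. The C/D box SNORD genes, chosen by the same count rule (153 rows), summed to 807 ± 16.8 CPM in HCT116 and 1062 ± 34.2 CPM in HCT116oxR (SD, n = 3 each), a ratio of 1.31. In bulk RNA, fewer cells with a transcript and less transcript per cell cannot be told apart. The plot of summed levels shows these sums by library.

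**Figure D1:**
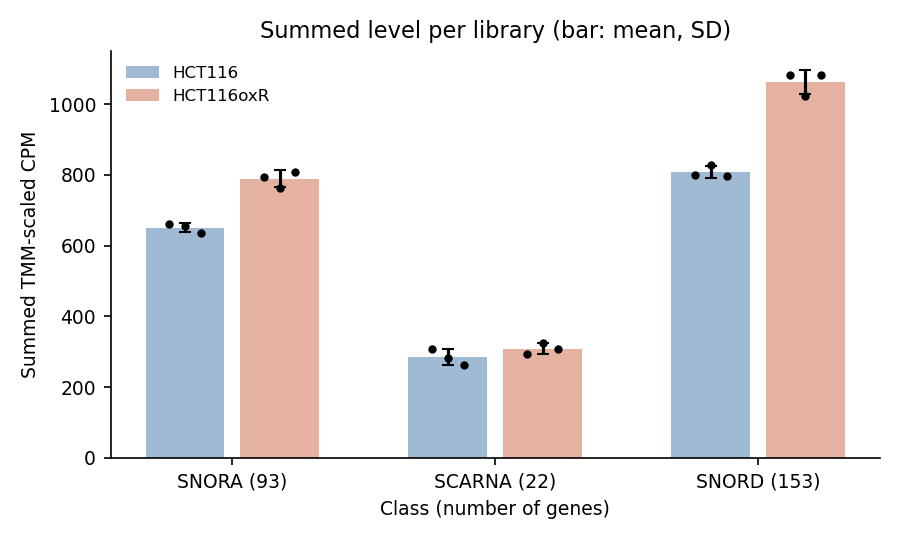
Summed TMM-scaled CPM (vertical axis) of the 93 SNORA members, the 22 SCARNA members and the 153 SNORD rows; bars are means and whiskers SDs of 3 libraries per line, and black points are libraries. The SNORA and SNORD points of HCT116oxR lie above all HCT116 points, while the SCARNA points of the lines overlap.

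Gene by gene, 31 of the 115 members were higher in HCT116oxR and 5 were lower by edgeR's quasi-likelihood F test at a Benjamini-Hochberg adjusted p under 0.05 over the 17511 genes tested, and 79 did not pass. The members' shares were 27.0% higher and 4.35% lower. Over all genes tested, 44.1% passed, with 22.3% higher and 21.8% lower, so that the share of members called higher was near the background and the share called lower was below it. The median log2 fold change (HCT116oxR over HCT116) was 0.25 for members and -0.00057 for all genes tested. It was 0.30 for SNORA members, 0.11 for SCARNA members and 0.39 for the 152 SNORD genes tested, of which 54 rose and 2 fell. All 3 HCT116oxR libraries lay above all 3 HCT116 libraries for 37 members and below them for 2, where 25.7% and 24.8% of all genes did so. Scaling the libraries by TMM over the SNORA, SCARNA and SNORD rows alone moved the median of all genes to -0.34 and that of members to -0.09. Of all 17511 genes tested, 10406 passed in either direction with this scaling. Relative to the other small RNAs of these classes, 9 members were then higher and 17 lower, which is 7.83% and 14.8% of the members. The 9 were SNORA72, SCARNA1, SNORA50C, SNORA75, SNORA81, SNORA62, SNORA4, SNORA73B and SNORA103. The shift touches every gene, so the smaller rises given below for members, hosts and protein genes turn negative with this scaling, called snoRNA-row scaling here. The ranked plot shows every member.

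**Figure D2:**
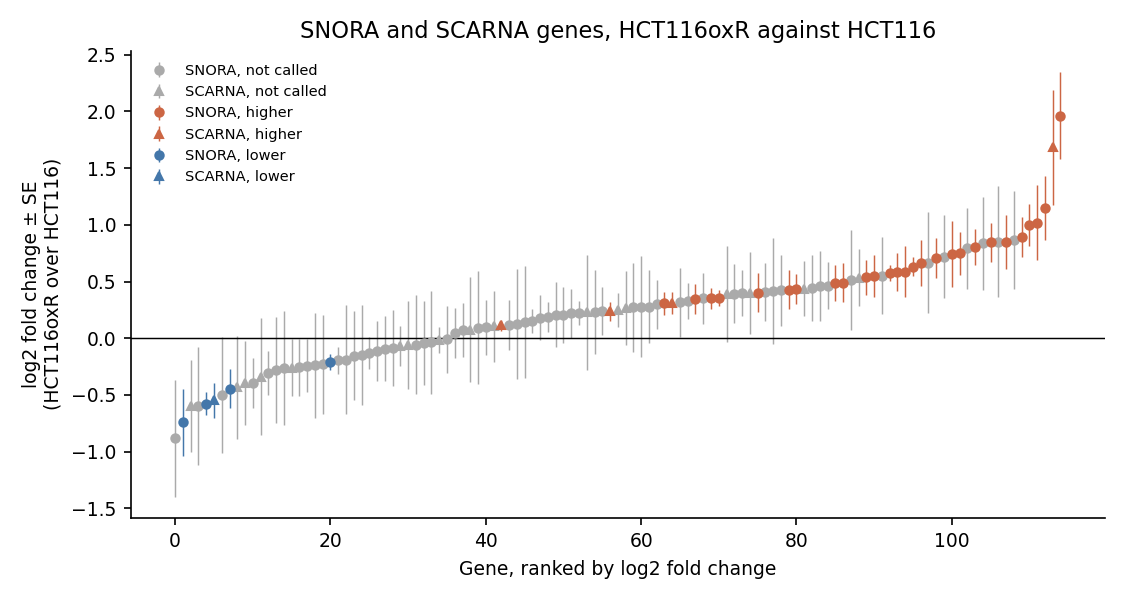
log2 fold change of HCT116oxR over HCT116 (vertical axis, whiskers ± SE) of the 115 members in rank order, circles for SNORA and triangles for SCARNA genes, coloured by the test over all genes. The 31 members called higher include SNORA72 at 1.96 and SCARNA1 at 1.69, and the 5 called lower reach -0.74 for SNORA84.

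Counts limited what could be called. Of the 34 members with 60 to under 150 summed counts, 1 rose and 0 fell, with a median standard error (SE) of 0.46 on the log2 scale. Of the 38 members with 150 to under 400 counts, 6 rose and 1 fell, with a median SE of 0.28. Of the 43 members with 400 or more counts, 24 rose and 4 fell, with a median SE of 0.16. The median log2 fold changes of these groups were -0.04, 0.29 and 0.35, so the least abundant members had no upward lean, with 16 positive and 18 negative values. A change of modest size in 1 of them was not detectable at this depth. Over the 4277 genes whose mean CPM lay between the members' quartiles, 761 rose and 565 fell, with a median log2 fold change of 0.03.

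EIF4A2 encodes an RNA helicase of the translation initiation machinery, and 3 members lie within it on chromosome 3. SNORA81 (chr3:186786676-186786852, GRCh38) was at 5.73, 6.22 and 4.45 CPM in HCT116 and at 10.0, 9.03 and 11.4 CPM in HCT116oxR, a log2 fold change of 0.89 ± 0.18 (SE; edgeR adjusted p = 1.02e-05). SNORA4 (chr3:186787613-186787749) was at 7.62, 6.98 and 6.56 CPM in HCT116 and 14.8, 10.4 and 11.7 CPM in HCT116oxR (0.81 ± 0.16, edgeR adjusted p = 8.39e-06). SNORA63 (chr3:186787299-186787433) was at 8.35 ± 0.806 CPM in HCT116 and 12.1 ± 1.33 CPM in HCT116oxR (SD, n = 3 each; log2 fold change 0.54 ± 0.15, edgeR adjusted p = 0.00217). In all 3, every HCT116oxR library was above every HCT116 library. The count of EIF4A2 itself rose by 0.48 ± 0.05.

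SNORA28 (chr14:103337849-103337974) lies within EIF5, which encodes the initiation factor that triggers GTP hydrolysis on the start codon complex. It was at 4.23, 5.72 and 4.78 CPM in HCT116 and at 8.41, 8.65 and 7.58 CPM in HCT116oxR, a log2 fold change of 0.75 ± 0.19 (edgeR adjusted p = 0.000592). SNORA67, which shares the host EIF4A1 with the next member, stood at 0.33 ± 0.16 and overlapped, as did SNORA19 within EIF3A at 0.28 ± 0.32 and SNORA41 within EEF1B2 at -0.09 ± 0.33, none of which passed. SNORA48 (chr17:7574713-7574847), within EIF4A1 and the readthrough gene SENP3-EIF4A1, was at 2.34, 2.10 and 1.86 CPM in HCT116 and at 3.98, 3.58 and 3.01 CPM in HCT116oxR. SNORA28 and SNORA48 separated the lines without overlap, but the rise of SNORA48 (0.75 ± 0.29, edgeR adjusted p = 0.0287) was not firm. Its adjusted p was 0.0558 with DESeq2 and 0.0515 with no filter on low counts. It was 0.0565 without HCT116 replicate 2, 0.0893 without HCT116 replicate 3, 0.112 without HCT116oxR replicate 1 and 0.0639 without HCT116oxR replicate 2.

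SNORA75 (chr2:231455800-231455936) lies within NCL, the gene of nucleolin, an abundant nucleolar protein. It was at 4.30, 5.38 and 4.45 CPM in HCT116 and at 7.97, 10.7 and 9.61 CPM in HCT116oxR, a 2.00-fold rise (log2 1.00 ± 0.19, edgeR adjusted p = 2.78e-06), while NCL rose by 0.36 ± 0.04. Its lines did not overlap, and the ratio of SNORA75 to NCL was higher in each HCT116oxR library than in any HCT116 library.

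Of the 14 ribosomal protein genes that contained a member, 13 rose and 0 fell, and their summed level went from 3981 ± 95.9 to 5167 ± 56.2 CPM (SD, n = 3 each). Of the 17 members with a ribosomal protein gene as the single tested host, 10 rose and 0 fell, with a median log2 fold change of 0.55. Members in other protein-coding hosts rose in 12 and fell in 5 of 68 cases, with a median of 0.20, and members in long noncoding RNA hosts rose in 3 and fell in 0 of 16 cases, with a median of 0.27. Over all genes tested, 22.3% rose and 21.8% fell. The 3 groups of members differed in level, with median CPM of 5.61, 2.68 and 4.80 in that order, and low counts limit what can be called. The difference between these host groups was not tested.

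Within RPSA, which encodes the ribosomal protein uS2, also known as the laminin receptor, lie SNORA62 (chr3:39411054-39411207) and SNORA6. SNORA62 was at 5.28, 6.98 and 5.50 CPM in HCT116 and at 10.8, 9.03 and 12.1 CPM in HCT116oxR (0.85 ± 0.17, edgeR adjusted p = 1.55e-05). SNORA66 (chr1:92840719-92840851), within RPL5, was at 2.72, 2.94 and 3.40 CPM in HCT116 and at 5.61, 5.45 and 5.30 CPM in HCT116oxR (0.85 ± 0.24, edgeR adjusted p = 0.00167). In both, the groups were apart. Their hosts rose by 0.57 ± 0.03 for RPSA and 0.36 ± 0.03 for RPL5. SNORA6 rose by 0.55 ± 0.19 (edgeR adjusted p = 0.0118), with the lines overlapping. Its edgeR adjusted p was 0.111 without HCT116 replicate 2 and 0.113 without HCT116oxR replicate 3.

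SNORA72 (chr8:98042086-98042217), within RPL30, had the largest called log2 fold change of the members. Its raw counts were 9, 9 and 12 in the HCT116 libraries and 34, 40 and 49 in the HCT116oxR libraries, or 0.802 ± 0.151 and 3.16 ± 0.758 CPM (SD, n = 3 each), a log2 fold change of 1.96 ± 0.38 (edgeR adjusted p = 7.12e-06). RPL30 rose by 0.65 ± 0.05. The protein-coding genes within 5 Mb on either side of SNORA72 had a median log2 fold change of 0.73, the highest such value for any member. The part of that regional shift in the value of SNORA72 was not tested.

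SCARNA1 (chr1:27834401-27834566), an H/ACA Cajal body RNA known to guide pseudouridylation of U2 small nuclear RNA, followed in size. It had 3, 7 and 8 counts in HCT116 and 27, 21 and 14 in HCT116oxR, or 0.488 ± 0.228 and 1.57 ± 0.425 CPM (SD, n = 3 each). The log2 fold change was 1.69 ± 0.51 (edgeR adjusted p = 0.00384), while its host PPP1R8, which encodes a nuclear regulator of protein phosphatase, stood at 0.24 ± 0.16 and did not pass the test. The counts are low, and the SE is the widest among the called members.

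SNORA50C (chr17:64146339-64146471), for which no tested gene contained it, was at 3.24, 1.01 and 2.10 CPM in HCT116 and at 3.47, 6.04 and 4.81 CPM in HCT116oxR (1.15 ± 0.28, edgeR adjusted p = 0.000358). SNORA50A has a related symbol, but the sequences of these genes were not compared. The counting of reads that match more than 1 gene is not stated in the labels. SNORA57 (chr11:62665422-62665570) was at 1.43, 1.68 and 1.54 CPM in HCT116 and at 1.77, 3.95 and 3.75 CPM in HCT116oxR (1.02 ± 0.33, edgeR adjusted p = 0.00778). In both genes the lowest HCT116oxR library, replicate 1, sat just above the highest HCT116 library. The adjusted p of SNORA57 was 0.0785 without HCT116oxR replicate 2 and 0.0568 without HCT116oxR replicate 3.

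SNHG12, a long noncoding RNA gene whose introns carry snoRNAs, contains 3 members that differed in their calls. SNORA16A (chr1:28580920-28581053) was at 5.51, 7.91 and 5.34 CPM in HCT116 and at 12.7, 9.62 and 8.15 CPM in HCT116oxR (0.71 ± 0.18, edgeR adjusted p = 0.000412). SNORA44 stood at 0.40 ± 0.20 (edgeR adjusted p = 0.103) and SNORA61 at 0.15 ± 0.11 (edgeR adjusted p = 0.251). SNHG12 stood at 0.01 ± 0.19. The ratio of SNORA16A to SNORA61 counts was 0.290 ± 0.0823 in HCT116 and 0.421 ± 0.0900 in HCT116oxR (SD, n = 3 each), and an exact 2-sided permutation test gave p = 0.2, where 0.1 is the smallest p that 3 against 3 libraries allow. The member with the larger rise was set over the other, so a higher ratio in HCT116oxR was built into the choice.

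**Figure D3:**
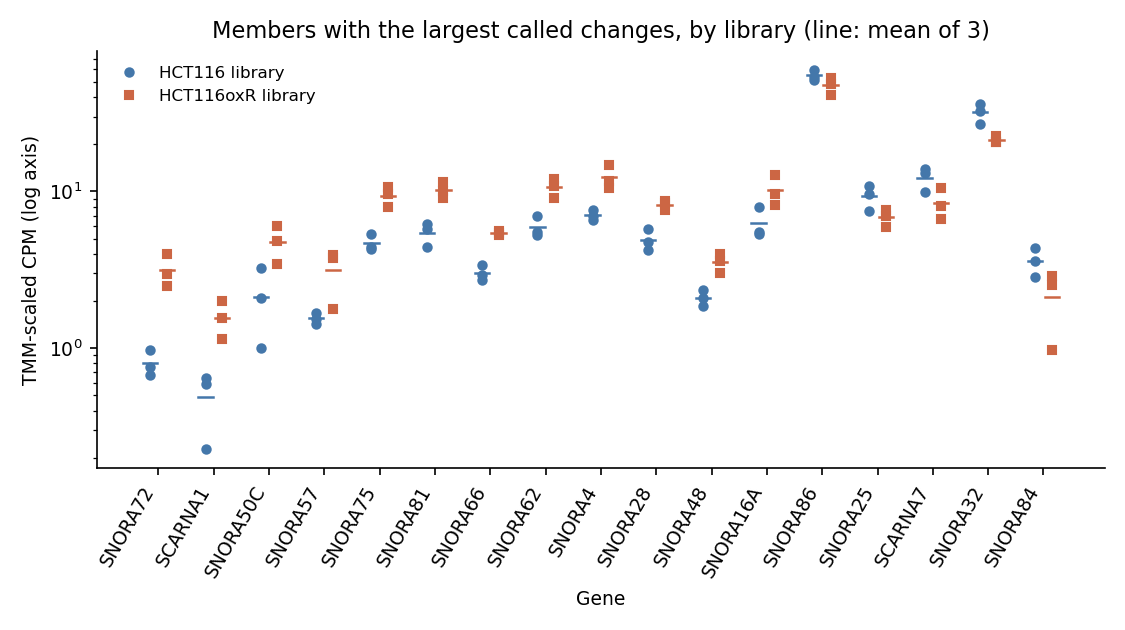
TMM-scaled CPM (log axis) of the members with the largest called changes, blue circles for HCT116 and orange squares for HCT116oxR libraries, with lines at the means of 3. The 12 genes on the left were higher in every HCT116oxR library, and of the 5 lower genes on the right the lines are apart in SNORA32 and overlap in SNORA84, SCARNA7, SNORA25 and SNORA86.

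The U17 small nucleolar RNAs SNORA73A and SNORA73B act in the cleavage of precursor ribosomal RNA and are not known for guiding pseudouridylation. They lie within the spans of SNHG3 and RCC1. SNORA73B was at 32.5, 30.4 and 27.0 CPM in HCT116 and at 46.5, 46.0 and 46.9 CPM in HCT116oxR (0.63 ± 0.08, edgeR adjusted p = 6.30e-11). SNORA73A was at 28.1, 27.6 and 27.4 CPM in HCT116 and at 35.0, 32.3 and 38.9 CPM in HCT116oxR (0.35 ± 0.09, edgeR adjusted p = 0.000633). Both copies rose without overlap of the lines, and with snoRNA-row scaling SNORA73A stood at 0.01. The copies are near-identical, so reads may be split between them. The count ratio of SNORA73B to SNORA73A was 1.08 ± 0.0873 in HCT116 and 1.32 ± 0.109 in HCT116oxR (SD, n = 3 each; exact permutation p = 0.1, the smallest possible). The copy with the larger rise was set over the other. A higher ratio in HCT116oxR was thus built into the choice, and the permutation test adds no support. SNHG3 rose by 0.47 ± 0.09 and RCC1 by 0.31 ± 0.09.

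Per kilobase of annotated length, the highest HCT116 levels among the members belonged to SNORA105B at 519, SNORA103 at 489, SCARNA10 at 442 and SNORA86 at 396 CPM per kb. SNORA66, one of the risers above, was at 22.7 CPM per kb. SNORA103 (chr1:173866205-173866290), within the growth-arrest transcript gene GAS5, was at 42.5, 43.9 and 39.9 CPM in HCT116 and at 63.0, 58.5 and 66.7 CPM in HCT116oxR (0.57 ± 0.07, edgeR adjusted p = 6.39e-12). SNORA105B (chr2:197486788-197486903), within HSPD1, the gene of the mitochondrial chaperonin, was at 67.4, 52.1 and 61.1 CPM in HCT116 and at 80.0, 68.4 and 83.5 CPM in HCT116oxR (0.36 ± 0.07, edgeR adjusted p = 5.73e-05). In both, the lowest HCT116oxR library exceeded the highest HCT116 library. Both values are close to those of their hosts, 0.49 ± 0.07 for GAS5 and 0.37 ± 0.06 for HSPD1. Exon positions were not used, so reads of a host transcript that overlap a member's interval cannot be told apart from the small RNA.

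The members called lower were 4 SNORA genes and SCARNA7. SNORA32 (chr11:93730979-93731099), within TAF1D, was at 32.5, 27.0 and 36.2 CPM in HCT116 and at 22.6, 20.7 and 20.8 CPM in HCT116oxR, a log2 fold change of -0.58 ± 0.10 (edgeR adjusted p = 4.64e-07). It was the only one of the 5 in which the lines did not overlap, and it stayed lower past the threshold in every alternative run. SCARNA7 (chr3:160514907-160515236), a C/D Cajal body RNA known to guide methylation of U1 small nuclear RNA, was at 13.8, 13.0 and 9.96 CPM in HCT116 and at 6.64, 8.13 and 10.5 CPM in HCT116oxR (-0.55 ± 0.16, edgeR adjusted p = 0.00222). Its host KPNA4, which encodes an importin, fell by 0.41 ± 0.04. Without HCT116oxR replicate 1 the adjusted p of SCARNA7 was 0.0521.

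SNORA84 (chr9:92292461-92292593), within the isoleucyl-tRNA synthetase gene IARS, was at 3.62, 4.37 and 2.83 CPM in HCT116 and at 2.88, 2.54 and 0.978 CPM in HCT116oxR (-0.74 ± 0.30, edgeR adjusted p = 0.0338). HCT116oxR replicate 3 was the low library, and without it the value was -0.41 with an adjusted p of 0.315. The adjusted p was also above 0.05 without HCT116 replicate 1 (0.0623) or replicate 2 (0.164). SNORA86 (chr10:32901334-32901472), within the integrin gene ITGB1, was at 51.5, 59.8 and 53.7 CPM in HCT116 and at 41.4, 53.0 and 48.1 CPM in HCT116oxR (-0.21 ± 0.07, edgeR adjusted p = 0.0144). Its adjusted p was 0.252 without HCT116oxR replicate 1 and 0.152 without HCT116 replicate 2. SNORA25 (chr11:93730513-93730646) was at 9.58, 10.8 and 7.53 CPM in HCT116 and at 5.90, 7.61 and 7.01 CPM in HCT116oxR (-0.45 ± 0.17, edgeR adjusted p = 0.0276). Its adjusted p was 0.184 without HCT116 replicate 2 and 0.144 without HCT116oxR replicate 1, and it was also above 0.05 without HCT116 replicate 1 (0.0691) and without HCT116oxR replicate 3 (0.0515). DESeq2 called SNORA32 and SCARNA7 lower and none of the other 3.

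TAF1D, which encodes a subunit of the selectivity factor of RNA polymerase I, contains 6 members on chromosome 11, and they moved in both directions. In order from the annotated start of TAF1D they are SNORA40, SNORA18, SNORA8, SNORA1, SNORA32 and SNORA25, beginning 6259, 7898, 8996, 9362, 10396 and 10849 bases from that start. SNORA40 was at 23.3, 25.1 and 21.0 CPM in HCT116 and at 29.8, 29.2 and 26.8 CPM in HCT116oxR (0.31 ± 0.10, edgeR adjusted p = 0.0074), a rise that became -0.03 with snoRNA-row scaling. SNORA1 was at 8.22, 7.57 and 5.10 CPM in HCT116 and at 9.51, 10.7 and 9.12 CPM in HCT116oxR (0.49 ± 0.17, edgeR adjusted p = 0.013). Both thus rose with the lines apart, while SNORA18 stood at 0.22 ± 0.11 (edgeR adjusted p = 0.0852) and SNORA8 at -0.13 ± 0.14 (edgeR adjusted p = 0.496). The adjusted p of SNORA40 was 0.0612 without HCT116 replicate 3, and that of SNORA1 was 0.172 without HCT116 replicate 3 and 0.0688 without HCT116oxR replicate 2. SNORA32 and SNORA25, the 2 farthest from the start, were the pair that was lower. TAF1D itself rose by 0.21 ± 0.05 (edgeR adjusted p = 6.30e-05).

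Ratios within a library do not depend on how libraries are scaled, so members within TAF1D were set against each other, a called faller against a called riser in each of 2 pairs that are not adjacent. The count ratio of SNORA32 to SNORA40 was 1.40, 1.08 and 1.72 in the HCT116 libraries and 0.760, 0.709 and 0.775 in the HCT116oxR libraries. The count ratio of SNORA25 to SNORA1 was 1.17, 1.43 and 1.48 in HCT116 and 0.620, 0.708 and 0.768 in HCT116oxR. Both ratios thus passed from above 1 in every HCT116 library to below 1 in every HCT116oxR library. Each exact 2-sided permutation test gave p = 0.1, the smallest that 3 against 3 libraries allow. These pairs were chosen after their values were seen. With a called faller over a called riser, a lower ratio in HCT116oxR was built into the choice. The permutation tests therefore add no support. The plot of the TAF1D members shows each library.

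**Figure D4:**
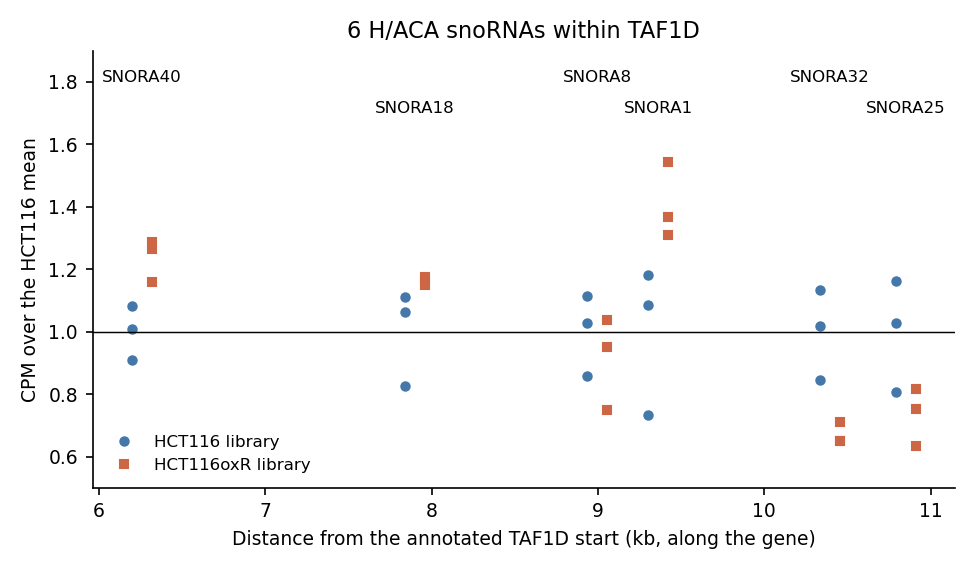
CPM of the 6 members within TAF1D over each gene's HCT116 mean (vertical axis), against distance from the annotated TAF1D start in kb; blue circles are HCT116 and orange squares HCT116oxR libraries. SNORA40, SNORA18 and SNORA1 have all orange points above the blue ones, and SNORA32 has all of them below.

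Of the 22 Cajal body RNAs, 4 rose and 1 fell (18.2% and 4.55%). By class, 1 of 10 H/ACA, 1 of 4 C/D and 2 of 5 mixed members rose, and the one that fell was C/D. A difference between SCARNA and SNORA genes was not tested. SCARNA12 (chr12:6967337-6967606), a mixed RNA within PHB2, was at 25.4, 22.4 and 22.1 CPM in HCT116 and at 29.0, 27.8 and 30.0 CPM in HCT116oxR (0.31 ± 0.10, edgeR adjusted p = 0.00648), a rise that became -0.03 with snoRNA-row scaling. SCARNA2 (chr1:109100193-109100612), a C/D RNA known to guide methylation of U2 small nuclear RNA and, unlike most of the class, an independent gene, was at 36.0, 33.3 and 32.7 CPM in HCT116 and at 36.1, 43.9 and 40.4 CPM in HCT116oxR (0.24 ± 0.08, edgeR adjusted p = 0.0141), and stood at -0.10 with snoRNA-row scaling. The lines did not overlap in either gene, though for SCARNA2 the nearest libraries were almost equal, and its adjusted p was 0.145 without HCT116oxR replicate 2, 0.0508 without HCT116 replicate 2 and 0.0589 without HCT116 replicate 3.

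SCARNA10 (chr12:6510222-6510551), a mixed RNA known for guiding changes in U5 small nuclear RNA, had the highest counts of the members. It was at 155, 144 and 139 CPM in HCT116 and at 151, 171 and 152 CPM in HCT116oxR (0.11 ± 0.05, edgeR adjusted p = 0.038), with the lines overlapping. That call was lost with DESeq2 (adjusted p = 0.127), with no filter on low counts (0.0619) and without HCT116oxR replicate 2 (0.45), HCT116 replicate 3 (0.222) or HCT116 replicate 2 (0.108), and with snoRNA-row scaling SCARNA10 was called lower (-0.22, adjusted p = 0.00103). Its host NCAPD2, a condensin subunit gene, rose by 0.42 ± 0.06, and the ratio of SCARNA10 to NCAPD2 was lower in every HCT116oxR library than in any HCT116 library.

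The other Cajal body RNAs named here did not pass the test. With snoRNA-row scaling SCARNA5 (-0.35, edgeR adjusted p = 0.0123), SCARNA6 (-0.60, 0.0332) and SCARNA17 (-0.41, 0.0437) were called lower. The median of all genes stood at -0.34 with that scaling. SCARNA5 was at 28.7, 24.0 and 16.9 CPM in HCT116 and at 22.0, 23.7 and 23.3 CPM in HCT116oxR (-0.02 ± 0.12), and its neighbour SCARNA6 stood at -0.26 ± 0.25. Their shared host ATG16L1, an autophagy gene, fell by 0.28 ± 0.09. SCARNA13, a guide within SNHG10, was higher in every HCT116oxR library at 0.25 ± 0.15 (edgeR adjusted p = 0.183). SCARNA21 stood at 0.40 ± 0.36, SCARNA9 at 0.11 ± 0.31, SCARNA22 at 0.07 ± 0.46 and SCARNA17 at -0.07 ± 0.18, each with overlapping lines. SNORA56, within DKC1, stood at -0.24 ± 0.46, and SNORA36B at 0.85 ± 0.49 (edgeR adjusted p = 0.157).

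Host genes were found by position. A single tested gene contained 102 of the members, 2 or more contained 9, and 4 lay in no tested gene. Of the 94 distinct containing genes, 38 rose and 18 fell, 40.4% and 19.1%, with a median log2 fold change of 0.10. Over all genes tested, 22.3% rose and 21.8% fell. The hosts' median level was 91.5 CPM, against 16.9 CPM for all genes tested, and low counts limit what can be called. Among the 102 members with 1 host, 25 rose. Of these, 21 had a host that also rose and 4 a host that was not called. Of the 5 that fell, 3 had a host that fell and 2, SNORA32 and SNORA25, a host that rose. Members that were not called had a host that rose in 21 cases, a host that fell in 17 and an uncalled host in 34. The member and its host had the same sign in 73 of 102 cases, with a Pearson correlation of 0.49 and a Spearman correlation of 0.50 over the 102 pairs. Pairs share libraries, some share a host, and a member's count may include reads of its host, so these are descriptions.

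The size of the change differed between some members and their hosts. The member's log2 fold change minus the host's had a median of 0.15 and ranged from -0.93 to 1.45. The ends were SNORA70B and SCARNA1, whose own values each had an SE of 0.51. The ratio of member to host CPM was higher in every HCT116oxR library than in any HCT116 library for 17 members, lower for 6 and overlapping for 79. With 3 libraries per line, some ratios separate without any difference between the lines. No background share for such ratios was computed, so these counts are descriptions. Those with the higher ratio included SCARNA1, SNORA72, SNORA75, SNORA66, SNORA28, SNORA68 and SNORA33. Those with the lower ratio included SNORA32, SNORA25, SCARNA10, SNORA65 and SNORA10, the latter pair in RPL12 and RPS2. The plot of members against hosts shows the 102 pairs.

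**Figure D5:**
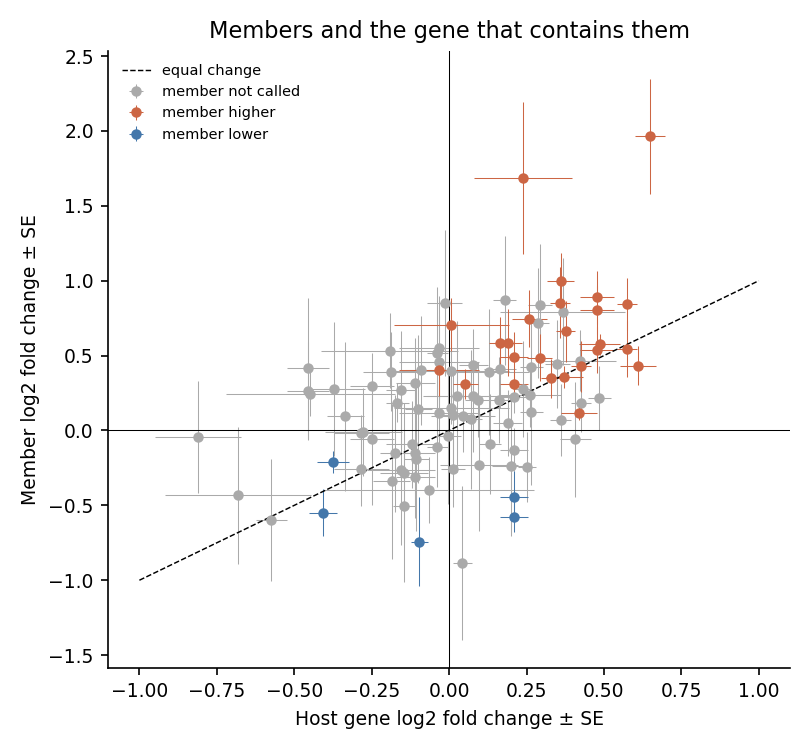
log2 fold change of each of 102 members (vertical axis, ± SE) against that of the single tested gene containing it (horizontal axis, ± SE); the dashed line marks equal change and colours give the member's call. Most called members lie above 0 on both axes, while SNORA32 and SNORA25 lie low above a host value of 0.21.

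Many hosts share a feature of their first transcribed bases. A terminal oligopyrimidine start, a C at the first base followed by an unbroken run of C and T, is known from ribosomal protein genes and several snoRNA hosts, and makes translation of the mRNA sensitive to growth signals. Here it was searched as a C at an annotated RefSeq start (GRCh38.p14) that opened a run of at least 5 C or T on the transcribed strand. It was present at 4.07% of the 35116 starts listed and at 1 or more starts of 5.14% of the 27305 genes. Of the 72 hosts with a listed start, 23 had it (31.9%), as did 8 of the 9 ribosomal protein hosts matched (88.9%) and 15 of the 63 others (23.8%). The following windows of 15 bases before and 15 from the annotated start, 5′ to 3′ with the pyrimidine run in capitals, show it in 5 hosts whose members are described above, and its absence at the listed start of NCL.
RPSA (chr3:39406705-39406734, plus strand): tttcctgccgcctgtCTTTTCCgtgctacc
RPS12 (chr6:132814554-132814583, plus strand): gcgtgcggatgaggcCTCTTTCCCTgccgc
EIF4A2 (chr3:186783562-186783591, plus strand): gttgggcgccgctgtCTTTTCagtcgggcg
TAF1D (chr11:93741481-93741510, minus strand): acggaaatagccaacCCTTTTCTTCCgcac
SNHG12 (chr1:28581859-28581888, minus strand): tcgcggcttcagcgcCCTTTCTCCCCgccg
NCL (chr2:231464470-231464499, minus strand): tcagtctttcgcctcagtctcgagctctcg

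Hosts with that start leaned upward. Of the 23, 15 rose and 0 fell, with a median log2 fold change of 0.29, and without the ribosomal protein genes 8 of 15 rose and 0 fell, with a median of 0.22. Of the 49 hosts whose listed starts lacked it, 15 rose and 13 fell, with a median of -0.03. Among all tested genes with a listed start, 34.4% of the 749 with the pyrimidine start rose and 18.4% fell, while 22.2% of the 9912 without it rose and 25.4% fell. Members inside a single host with the start rose in 15 and fell in 2 of 30 cases, with a median of 0.35, and members inside a single host without it rose in 6 and fell in 1 of 51 cases, with a median of 0.12. The motif match describes the annotated bases and does not show where transcription began in these cells. This split was chosen after member values had been seen, and no test of it was made.

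The genes of the proteins that bind these RNAs changed in both directions. In the list of H/ACA core and assembly genes, 3 of 10 rose and 3 fell. DKC1, the pseudouridine synthase, rose by 0.20 ± 0.06 (edgeR adjusted p = 0.00546), and the core proteins NHP2 and GAR1 rose by 0.22 ± 0.07 and 0.27 ± 0.09. NOP10, the fourth core protein, stood at 0.14 ± 0.11 and did not pass. NAF1, which holds the place of GAR1 during assembly, fell by 0.65 ± 0.14 (edgeR adjusted p = 3.09e-05), and NOLC1 and TCOF1, nucleolar phosphoproteins, fell by 0.16 ± 0.03 and 0.12 ± 0.04, the latter with an adjusted p of 0.126 without HCT116 replicate 1. The assembly chaperone SHQ1 stood at -0.24 ± 0.48. The calls of DKC1, NHP2 and GAR1 were each lost when certain single libraries were left out, with adjusted p up to 0.0957 for DKC1 (without HCT116 replicate 3), 0.0515 for NHP2 (without HCT116 replicate 1, and 0.0509 without replicate 2) and 0.198 for GAR1 (without HCT116oxR replicate 3, and 0.102 without HCT116 replicate 2).

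Of the 21 Cajal body and SMN complex genes tested, 3 rose and 4 fell. COIL, the gene of the Cajal body scaffold coilin, rose by 0.20 ± 0.07, though its adjusted p was 0.0609 without HCT116 replicate 3, and USPL1 rose by 0.30 ± 0.06. WRAP53, whose protein TCAB1 brings Cajal body RNAs and telomerase RNA to Cajal bodies, fell by 0.40 ± 0.08 (edgeR adjusted p = 2.62e-05), and GEMIN4 and GEMIN7 of the SMN complex fell by 0.51 ± 0.05 and 0.52 ± 0.14. TERT, the telomerase reverse transcriptase, was at 8.00, 4.88 and 6.64 CPM in HCT116 and at 10.5, 13.2 and 9.94 CPM in HCT116oxR (0.78 ± 0.17, edgeR adjusted p = 4.15e-05), with the lines apart. TERC, the telomerase RNA, which carries an H/ACA domain but is not named as a SNORA or SCARNA gene, was at 69.4, 67.4 and 67.1 CPM in HCT116 and at 63.1, 64.0 and 69.1 CPM in HCT116oxR (-0.06 ± 0.06), and the lines overlapped.

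Of the 26 genes tested for trimming and decay of such RNAs, 4 rose and 3 fell. DBR1, the lariat debranching enzyme that opens excised introns, rose by 0.31 ± 0.09, the poly(A) polymerase gene PAPD7 by 0.29 ± 0.05 and the cap-binding gene NCBP2 by 0.29 ± 0.04, while the exosome subunit EXOSC2 fell by 0.45 ± 0.05. PARN, the deadenylase that trims H/ACA tails, stood at -0.16 ± 0.09 and did not pass. Of 12 pseudouridine synthases that work without a guide RNA, 2 rose and 3 fell. TRUB2, a mitochondrial enzyme, fell by 0.73 ± 0.09 and RPUSD1 by 0.46 ± 0.07, while TRUB1 rose by 0.32 ± 0.10 and RPUSD3 by 0.22 ± 0.08. The calls of TRUB1 and RPUSD3 were lost without some libraries (adjusted p of 0.0524 without HCT116 replicate 3 and 0.0528 without HCT116oxR replicate 3 for TRUB1, and 0.102 without HCT116oxR replicate 2 for RPUSD3). Over the 4 lists together, 12 of 69 genes rose and 13 fell (17.4% and 18.8%), both a little under the background.

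Some microRNA hairpins overlap H/ACA RNAs, so the small RNA libraries gave a second readout of the same loci. MIR1843, with 83 of 110 bases in SCARNA3, is not shown, and its mature miRNA was not tested. The other RefSeq hairpins over members (GRCh38.p14), shown because they place the mature miRNA (capitals) at the member's locus, are as follows, 5′ to 3′.
MIR664A, with 74 of 82 bases in SNORA36B: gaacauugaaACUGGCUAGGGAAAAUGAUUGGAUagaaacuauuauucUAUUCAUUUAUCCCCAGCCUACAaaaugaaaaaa
MIR1248, with 102 of 106 bases in SNORA81, the mature miRNA starting just before the member: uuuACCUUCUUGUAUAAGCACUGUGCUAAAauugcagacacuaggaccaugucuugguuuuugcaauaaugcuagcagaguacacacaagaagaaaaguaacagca
MIR6516, with 77 of 81 bases in SCARNA16: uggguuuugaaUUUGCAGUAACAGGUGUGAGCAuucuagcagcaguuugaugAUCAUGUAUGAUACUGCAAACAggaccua
MIR3651, with 87 of 90 bases in SNORA84: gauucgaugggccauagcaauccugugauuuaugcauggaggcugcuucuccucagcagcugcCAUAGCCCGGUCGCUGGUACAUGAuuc

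The mature miRNAs, with the seed (bases 2 to 8) in capitals, share no seed among the tested arms.
hsa-miR-1248: aCCUUCUUguauaagcacugugcuaaa
hsa-miR-664a-3p: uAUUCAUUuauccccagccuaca
hsa-miR-664a-5p: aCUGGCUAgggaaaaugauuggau
hsa-miR-6516-5p: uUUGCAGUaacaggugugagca
hsa-miR-6516-3p: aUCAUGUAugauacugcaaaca

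Of the 5 mature miRNAs tested from these hairpins, 0 passed edgeR's test over the 975 miRNAs, of which 44.7% passed (23.5% higher and 21.2% lower). None of the 5 separated the lines, while 28.5% of all miRNAs tested had every HCT116oxR library above and 26.7% every one below. At an unadjusted p under 0.05 there was 1, miR-6516-3p, and DESeq2 called 0. miR-1248 had 157, 138 and 173 counts in HCT116 and 97, 163 and 149 in HCT116oxR (9.80 ± 0.974 and 7.63 ± 2.17 CPM, SD, n = 3 each), a log2 fold change of -0.36 ± 0.20 (edgeR adjusted p = 0.167), beside the rise of 0.89 in SNORA81 in the total RNA libraries. miR-6516-3p had 16, 18 and 12 counts in HCT116 and 60, 40 and 15 in HCT116oxR (1.12 ± 0.46, edgeR adjusted p = 0.0665). It passed without HCT116oxR replicate 3 (edgeR adjusted p = 0.00587) and with no filter on low counts (0.0279). The HCT116oxR small RNA libraries lay farther apart than those of HCT116. Chi-square per degree of freedom between their counts was 20.8 (replicates 1 and 2), 67.9 (1 and 3) and 25.6 (2 and 3). In HCT116 it was 5.4 to 9.61. miR-664a-3p stood at 0.03 ± 0.19, miR-664a-5p at -0.32 ± 0.44 and miR-6516-5p at -0.17 ± 0.56, with overlapping lines. miR-3651, within SNORA84, had 3 to 16 counts per library and was not tested.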

How the data were processed

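Total RNA and small RNA of HCT116 and HCT116oxR were sequenced, 3 libraries each per line, so that 12 libraries were used. Both deposited tables hold raw counts made by the authors, for 54261 genes and 2588 miRNAs. Reads were aligned to GRCh38 with HISAT2 (total RNA) and BWA (small RNA), per the submitters' processing notes. For the counter, tool versions, annotation release, strandedness and multi-mapped reads, the answer is not given in the sources used here. RNA integrity numbers were above 8.0, per the labels' protocols.

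HCT116oxR was tested against HCT116 with edgeR 4.0.16 under R 4.3.3 (filterByExpr with 10 counts in a library and 15 in all, TMM, robust quasi-likelihood F test, 2-sided) over all genes or miRNAs, with Benjamini-Hochberg adjustment and a threshold of 0.05. The script was tested on simulated data. SEs are |log2 fold change| divided by √F, and a value given after "fell by" or "rose by" for a gene is its log2 fold change. DESeq2 1.42.0, other scalings and filters, a replicate block and leaving out each library were alternatives. All 115 members matched the RefSeq gene table by symbol. A host is a gene whose span contains a member on either strand, since the table gives no strand for members (the plan asked for the same strand). Copies such as SNORA71A to SNORA71D, SNORA5A to SNORA5C or SCARNA9 and SCARNA9L may share reads. Named members are up to 12 risers and 12 fallers by size, the 6 with the highest counts per kb, a fixed list of known RNAs and the rows next to the count threshold, with their hosts. Other genes named come from the lists. SNORA1, SNORA8, SNORA18, SNORA63, SNORA6, SNORA19, SNORA41, SNORA67, SNORA44, SNORA61 and the genes named only for their ratio to the host fall outside that rule, picked with their values in view. SNORA3A, SNORA3B and SNORA70B also fall outside it. Members and lists were chosen with earlier results of these data known. The SEs and SDs given here include the spread among the cultures of each line.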

Additional observations from a re-analysis of the deposited data

How the results depend on the processing

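With other tests, filters and scalings of all genes, or 1 library left out, 24 to 32 members were called higher, against 31, and counts for hosts and protein lists stayed within 1.5 times. The count called lower was 5, and 2 with DESeq2. Leaving out 1 library gave 24 to 31 higher and 2 to 5 lower. TMM over snoRNA rows, chosen after seeing the data, gave 9 higher and 17 lower, with 10406 of all 17511 genes tested passing in either direction. The count of miRNAs within members was 0, and 1 with no filter beyond 1 count; leaving out 1 library gave 0 to 1. Under that TMM, signs changed for SCARNA10 (-0.221), SNORA40 (-0.027), SCARNA2 (-0.096), SCARNA9 (-0.228), SCARNA12 (-0.027), SCARNA13 (-0.091) and SCARNA22 (-0.252). The labels do not say that replicate numbers mark a shared day or batch. Deviations of same-numbered libraries correlated at -0.007, -0.013 and -0.027 in total RNA and 0.079, -0.043 and -0.144 in small RNA. With 3 libraries per line, these values cannot show whether same-numbered cultures shared a batch. A replicate block gave 31 higher and 5 lower members, and only SCARNA5 changed sign among the results named (0.002). Not every library correlated best with its own number. The cause was not tested for any of these. Leaving out 1 library changed the sign of these uncalled log2 fold changes, given as lowest to highest: SCARNA5 -0.199 to 0.170, SCARNA9 -0.058 to 0.236, SCARNA17 -0.183 to 0.010, SCARNA22 -0.314 to 0.535, SCARNA23 -0.641 to 0.031, SHQ1 -0.543 to 0.147, CCT6P1 -0.183 to 0.165, CEP295 -0.047 to 0.048, LBHD1 -0.129 to 0.005, LOC441242 -0.312 to 0.195, METTL12 -0.001 to 0.641, RAB3GAP2 -0.060 to 0.016, SNHG12 -0.076 to 0.101, miR-664a-3p -0.046 to 0.153, miR-664a-5p -0.782 to 0.071 and miR-6516-5p -0.652 to 0.473. Low counts limit the least abundant members, whose median SE was 0.46 below 150 summed counts.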

Other observations

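Other noncoding RNAs outside the count rule or the symbols used above gave values of their own. RMRP, the RNA of the ribosomal RNA processing enzyme RNase MRP, was at 1605, 1486 and 1366 CPM in HCT116 and at 2081, 2228 and 2135 CPM in HCT116oxR (log2 fold change 0.53 ± 0.06, edgeR adjusted p = 0.000993). RPPH1, the RNA of RNase P, was at 3114 ± 256 and 3597 ± 50.1 CPM (SD, n = 3 each; 0.21 ± 0.06, edgeR adjusted p = 0.0413), with an adjusted p of 0.0642 without HCT116 replicate 2, 0.114 without HCT116oxR replicate 1 and 0.111 without HCT116oxR replicate 2. In both, every HCT116oxR library was above every HCT116 library, but with snoRNA-row scaling RMRP stood at 0.20 and RPPH1 was called lower (-0.13, adjusted p = 0.00751). RN7SK, the abundant RNA that holds the elongation factor P-TEFb inactive, went the other way, at 8613, 7836 and 8028 CPM in HCT116 and 4532, 5379 and 4745 CPM in HCT116oxR (-0.74 ± 0.08, edgeR adjusted p = 0.00164), with the lines apart, and stood at -1.07 with snoRNA-row scaling. Of the other RNAs looked up, the snoRNA host SNHG1 rose by 0.34 ± 0.05, a value of 0.01 with that scaling. SNORD3A (0.21 ± 0.17) and the small nuclear RNAs RNU1-1 (-1.12 ± 0.50), RNU2-2P (0.03 ± 0.11), RNU11 (-0.64 ± 0.39) and RNU12 (0.06 ± 0.31) did not pass. With that scaling RNU1-1, RNU2-2P and RNU11 were called lower (edgeR adjusted p = 0.00924, 0.0162 and 0.0276). However, 10406 of all 17511 genes tested passed in either direction with it, and the median of all genes was -0.34. RNU2-2P then stood at -0.31, near that median. The miRNA hsa-miR-1291, whose hairpin overlaps SNORA2C, a gene under the count threshold, had 164, 136 and 164 counts in HCT116 and 140, 82 and 110 in HCT116oxR (-0.66 ± 0.18, edgeR adjusted p = 0.0114), with adjusted p of 0.064 without HCT116oxR replicate 2 and 0.0502 without HCT116 replicate 3. Protein-coding genes within 5 Mb of the members had median log2 fold changes of -0.35 to 0.73, and beyond 0.25 in size for 6 members, SNORA72 and SCARNA8 above 0 and SNORA17A, SNORA17B, SNORA65 and SNORA22 below. The part of such regional shifts in the members' values was not tested. These genes were chosen after their values were seen.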
